A study of Mus musculus with 6 samples.

Results

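The 10 genes described here form the core of the transcriptional arm of the integrated stress response, which is governed by the transcription factor ATF4. They were chosen by name as the rows of the deposited count table whose symbol is Atf4, Atf5, Ddit3, Ddit4, Trib3, Chac1, Asns, Sesn2, Ppp1r15a or Psat1. These names match 11 of 55401 rows, because Ddit3 has a second row that held 0 counts in 6 of 6 libraries. All 10 genes passed the filter on low counts, which kept 17573 rows. The second Ddit3 row did not pass it and is not described further.

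The libraries hold RNA labelled with 4-thiouridine (4sU), a uridine analogue that cells build into RNA made while it is present, from mouse embryonic stem cells (129/Ola). The values therefore weigh newly made RNA more than the steady pool. In the ZFP207AID cells an auxin-inducible degron on the zinc finger protein ZFP207 lets the hormone indole-3-acetic acid (IAA) send the protein for degradation, and the series asks how ZFP207 acts on the U1 snRNP. There were 3 control libraries, titled as degron cells at 0 h, and 3 depleted libraries, titled as the same cells at 5 h of IAA. All 6 cultures grew in serum medium with leukemia inhibitory factor. The labels give the controls the genotype WT and name ZFP207 degradation for the others, so it cannot be told from the labels whether they carry the degron, and no cells without the degron that received IAA were analysed here. Whether the line is a single clone, how long 4sU was present and whether the independent replicates of the design text were separate cultures was not given by the labels, so a p-value reflects the spread among these 6 libraries, which may be technical. Fewer cells with a transcript and less transcript per cell cannot be told apart in such bulk RNA.

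In the integrated stress response, kinases that sense amino acid shortage, unfolded protein, heme shortage or double-stranded RNA phosphorylate the translation factor eIF2, and most translation slows. Atf4 mRNA escapes this through upstream reading frames in its leader, so ATF4 protein is controlled largely at translation, which RNA counts do not show. ATF4 then binds composite C/EBP-ATF response elements and raises genes for amino acid supply, for cell death and growth control, and for its own shut-off. ATF5 is a related basic leucine zipper factor, and DDIT3 (CHOP) is the factor linked to cell death after prolonged stress. TRIB3 is a pseudokinase that restrains ATF4 and AKT, and PPP1R15A (GADD34) directs a phosphatase to eIF2 and thereby ends the response. SESN2 and DDIT4 (REDD1) hold back the growth kinase mTORC1. CHAC1 degrades glutathione, ASNS makes asparagine, and PSAT1 is an aminotransferase of serine synthesis.

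The promoters of these genes are shown first because ATF4 acts through a known DNA element, and because the windows differ in whether they hold its core. Promoter sequences were taken from RefSeq (build GRCm38.p6, which mm10 also names; the C57BL/6J reference, not the 129/Ola genome). Each window ran from 250 bases before to 50 bases after an annotated start, and the 10 genes matched 12 windows, 2 each for Atf5 and Psat1. Capitals mark matches on either strand to TGATGNAA (the core of the C/EBP-ATF response element), TGACGTCA (the cAMP response element, which reads the same on both strands) or CCAAT (the box bound by NF-Y, which reads ATTGG when it lies on the opposite strand). No match overlapped another. The stretches below are written 5′ to 3′ on the strand of the gene.
Asns, chr6:7693210-7693309, minus strand, bases -100 to -1: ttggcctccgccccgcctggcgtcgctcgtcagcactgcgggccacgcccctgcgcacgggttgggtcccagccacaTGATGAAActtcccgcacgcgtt
Chac1, chr2:119351012-119351111, plus strand, 100 bases from base -230 on: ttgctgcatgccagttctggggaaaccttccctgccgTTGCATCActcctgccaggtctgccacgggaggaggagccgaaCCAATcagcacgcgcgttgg
Trib3, chr2:152344029-152344056, minus strand, bases 5 to 32 after the start: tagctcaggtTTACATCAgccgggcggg
Ppp1r15a, chr7:45526269-45526368, minus strand, bases -100 to -1: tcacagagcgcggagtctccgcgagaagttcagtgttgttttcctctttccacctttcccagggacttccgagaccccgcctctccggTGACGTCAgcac
Sesn2, chr4:132510527-132510626, minus strand, bases -170 to -71: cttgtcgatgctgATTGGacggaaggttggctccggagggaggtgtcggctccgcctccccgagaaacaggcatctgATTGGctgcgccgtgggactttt
Ddit4, chr10:59951861-59951960, minus strand, bases -190 to -91: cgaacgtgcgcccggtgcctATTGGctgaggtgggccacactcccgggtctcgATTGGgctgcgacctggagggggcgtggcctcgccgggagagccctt
Atf4, chr15:80255044-80255143, plus strand, bases -140 to -41: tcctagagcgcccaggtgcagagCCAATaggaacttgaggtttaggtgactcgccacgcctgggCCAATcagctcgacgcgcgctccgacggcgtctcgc

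Genes were counted once if any of their windows, 12 in all, held a match, whereas the share over all promoters counts windows. The TGATGNAA core was found in 3 of the 10 genes, against 3.97% of 32851 promoter windows in the table. In Asns it lies on the strand of the gene, at bases -23 to -16 from the start, and reads TGATGAAA. In Chac1 it lies on the opposite strand, at bases -193 to -186, and reads TGATGCAA there. In Trib3 it lies at bases 15 to 22 after the start, again on the opposite strand, as TGATGTAA. The cAMP response element was found in Ppp1r15a alone among these genes, at bases -12 to -5, and in 1.79% of all windows. A CCAAT box was found in 7 of the 10 genes, for Atf5 and Psat1 in only 1 of their 2 windows, and in 37.4% of all windows. Chac1 and Psat1 each held 3 such boxes, and Atf4, Ddit4 and Sesn2 held 2. In 6 of the 10 genes, Atf4, Atf5, Ddit3, Ddit4, Sesn2 and Psat1, neither of the other motifs was found. A match is a description of letters, and these windows do not reach enhancers or elements further upstream.

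**Figure D1:**
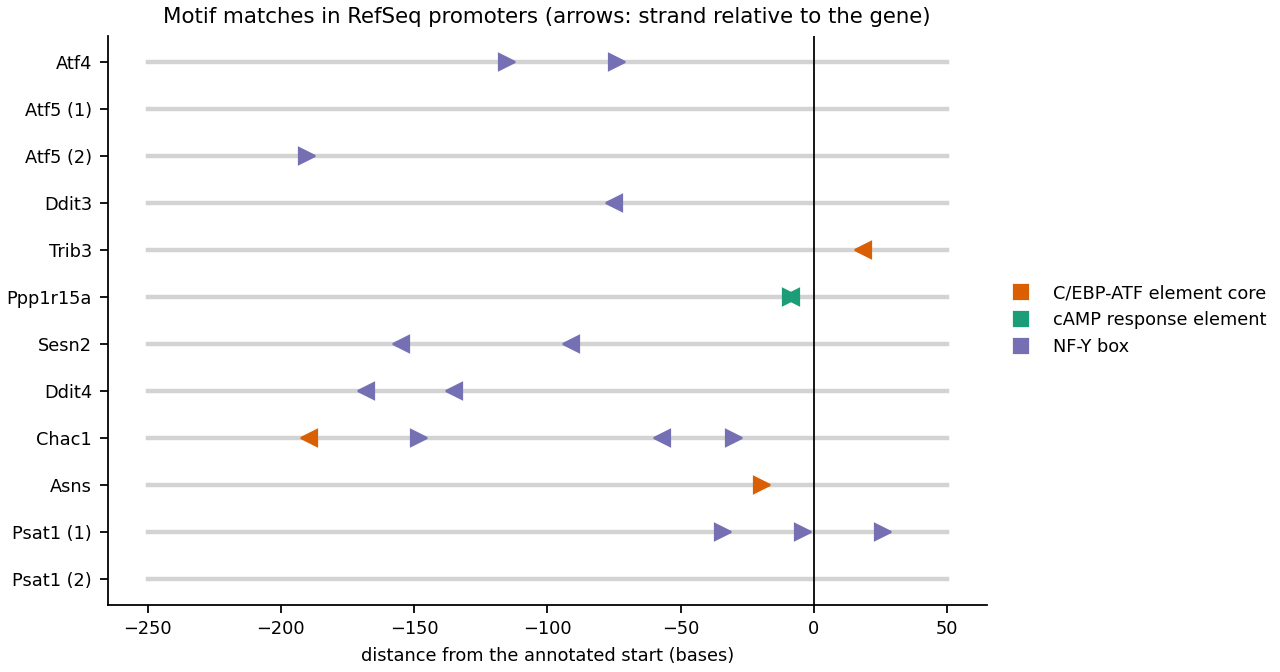
Positions of motif matches in the 12 RefSeq promoter windows of the 10 genes, in bases from the annotated start (x axis), with 1 line per window and arrows for the strand relative to the gene. The C/EBP-ATF core appears in Trib3, Chac1 and Asns, and the cAMP response element in Ppp1r15a.

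The libraries held between 14336811 and 25916628 counts, and a single member between 101 and 6886 counts per library. All 8 pluripotency markers looked up were present, with a summed level of 3923 to 4469 CPM (TMM-scaled counts per library, made comparable in depth) in controls and 4213 to 4783 CPM after IAA. When same-numbered libraries were compared as pairs (edgeR), 1 of the 8, Klf4, was called higher and 0 lower. The shares of all tested genes were 4.96% and 7.9%. Of 7 fibroblast markers, Col3a1, Lum, Dcn and Postn were at 0 counts in every library, and the 7 together summed to 2.49 to 8.94 CPM in controls and 2.87 to 4.47 CPM after IAA. The marker sums of primitive endoderm (at most 5 CPM), mesoderm (at most 6.34 CPM, with T at 0) and neural cells (75.3 to 133 CPM, with Neurog2 at 0) overlapped between the groups. Zfp207 RNA ranged from 545 to 1116 CPM in controls and from 596 to 1467 CPM after IAA. It was not called without pairs (edgeR adjusted p = 0.823) and was called higher with them (log2 fold change 0.29; edgeR, adjusted p = 0.0196), a call lost without pair 1 or pair 2. The degron acts on the protein, so this RNA does not check the depletion. On the first principal component of all tested genes (30.6% of the variance), both libraries of replicate 2 lay apart, the control at 99.2 and the depleted one at 50.2, and the other 4 between -73.4 and -12.2. Control replicate 2 was also the library with the lowest level for 9 of the 10 members, against 25.5% of all tested genes.

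After 5 h of IAA, 2 of the 10 ATF4 response genes, the mTORC1 inhibitors Sesn2 (1.29-fold) and Ddit4 (1.39-fold), had risen when libraries were compared within same-numbered pairs, and none was called when they were compared as groups. The levels of 3 further regulators, Atf5, Ddit3 and Ppp1r15a, were above the control in all 3 pairs without a call. Those of Atf4, Trib3 and the enzyme genes Asns, Psat1 and Chac1 were not higher in all 3 pairs. Of all tested genes, 4.96% were called higher within pairs and 24.3% were higher in every pair. With the 6 libraries compared as 2 groups (edgeR, Benjamini-Hochberg adjusted over all genes, called under 0.05; the unpaired fit), 0 of the 10 members were called, beside 0.791% of all tested genes. None of the 10 had an unadjusted p under 0.05 in that fit, beside 1914 of the 17573 tested genes. DESeq2 without pairs also called 0 members. The adjusted p-values of the members in the unpaired edgeR fit ran from 0.47 for Atf5 to 0.977 for Asns. Their median log2 fold change (depleted over control) was 0.21, beside 0.024 over all tested genes, and 8 members lay above 0.

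Libraries with the same replicate number deviated from their group means together, so a second edgeR fit took the number as a block (the paired fit). In it 2 members rose, Sesn2 and Ddit4, beside 4.96% of all genes called higher. It called 0 members lower, beside 7.9% of all genes. DESeq2 with the same block called the same 2 members, beside 6.47% of genes higher. Sesn2 kept its call without pair 1 (edgeR adjusted p = 0.0127) and lost it without pair 2 (0.0507) or pair 3 (0.081), with log2 fold changes of 0.45, 0.31 and 0.32. Ddit4 lost its call without pair 1 (0.0554), pair 2 (0.0672) or pair 3 (0.123), with log2 fold changes of 0.53, 0.44 and 0.44. All depleted libraries lay above all controls for Atf5 and Ddit3, 2 of the 10, beside 6.94% of all tested genes. Higher levels in every pair were found for 5 of 10 members, beside 24.3% of all tested genes, and lower levels in every pair for 0, beside 24.3% as well. The members span 2.1 to 19.9 kb of genome, and genes in that range of length were themselves shifted upward. The 6199 tested genes of that range had a median log2 fold change of 0.10, 30.5% were higher in every pair, and 7.52% were called higher in the paired fit. The part of gene length in the members' values was not tested.

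**Figure D2:**
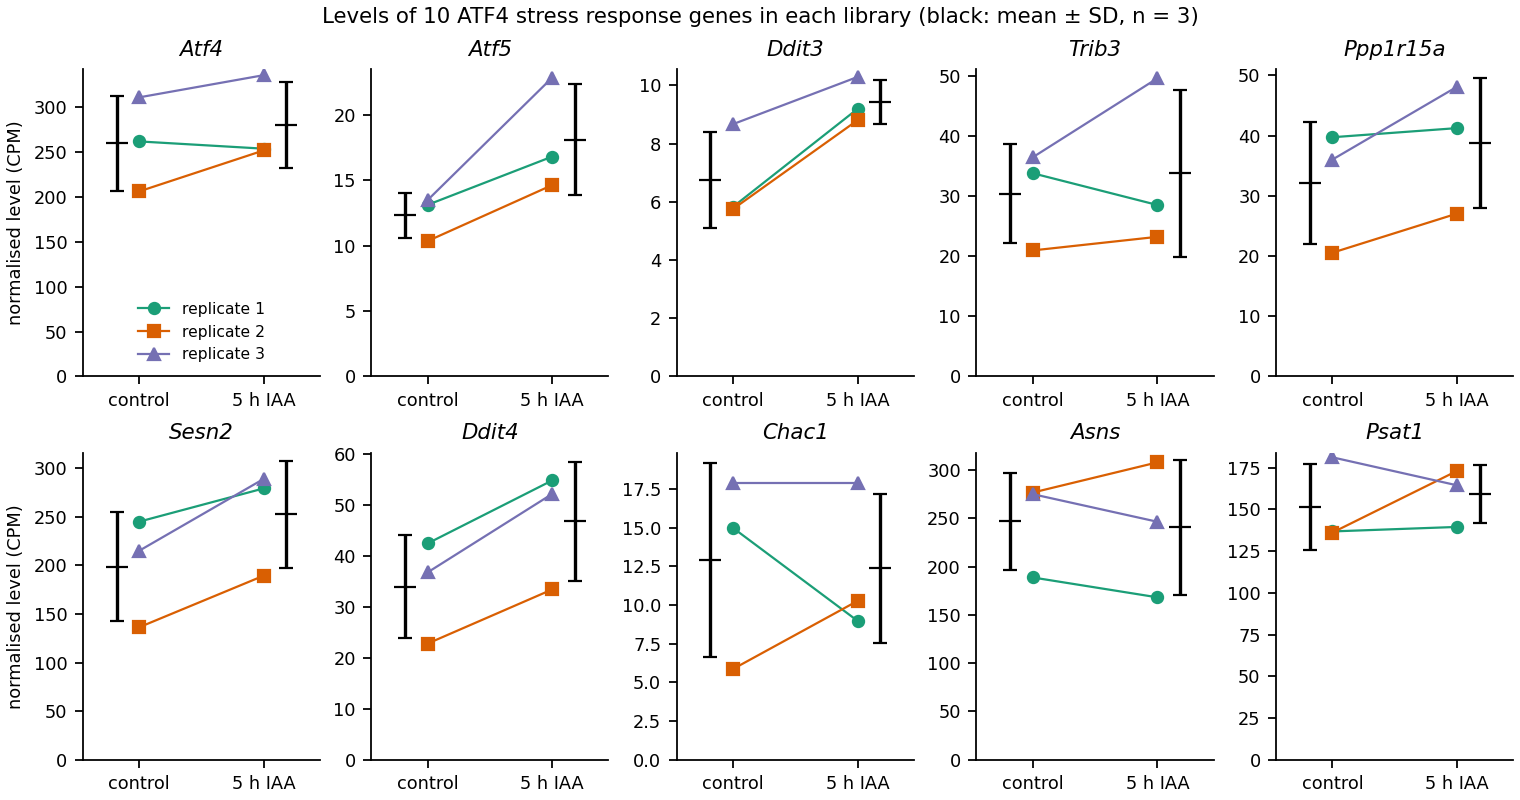
Normalised level in CPM (y axis, from 0) of each of the 10 genes in the 3 control and 3 depleted libraries, with lines joining libraries of the same replicate number and black bars for mean ± SD (n = 3). Lines rise in all 3 pairs for Atf5, Ddit3, Ppp1r15a, Sesn2 and Ddit4, while the group ranges overlap for all genes but Atf5 and Ddit3.

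Sesn2 (chromosome 4, 132492804 to 132510456) encodes a leucine-sensing inhibitor of mTORC1 and is also a known p53 target. It stood at 245, 136 and 215 CPM in control replicates 1 to 3 and at 279, 189.5 and 289 CPM in the depleted ones. Every depleted library lay above the control of its own number, by 1.14, 1.39 and 1.34 times, although the groups overlapped because both libraries of replicate 2 were low. Its log2 fold change was 0.36 with pairs (SE 0.08; edgeR, adjusted p = 0.0108) and 0.35 without them (SE 0.24; edgeR, adjusted p = 0.673). Its promoter stretch above holds 2 CCAAT boxes.

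Ddit4 (chromosome 10, 59949675 to 59951770), the other inhibitor of mTORC1 in the list and a gene of the hypoxia and glucocorticoid responses, was likewise lowest in replicate 2 of each group. Its levels were 42.4, 22.8 and 36.7 CPM in controls and 54.8, 33.4 and 52.1 CPM after IAA. The ratios within pairs were between 1.29 and 1.47, so that the pairs gave closer values than the libraries of a group did. With pairs the log2 fold change came to 0.47 (SE 0.12; edgeR, adjusted p = 0.0208), and without them to 0.46 (SE 0.27; edgeR, adjusted p = 0.605).

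Among the transcription factors, Atf4 itself (chromosome 15, 80255184 to 80257545) had levels of 262, 206 and 311 CPM in controls and 254, 252 and 336 CPM after IAA. Pair 1 was slightly lower after IAA and the others were higher, and the groups overlapped. Its paired log2 fold change of 0.12 had a 95% interval of -0.05 to 0.29 and was not called (edgeR adjusted p = 0.377).

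Atf5 (chromosome 7, 44812256 to 44816658) stood at 13.1, 10.4 and 13.5 CPM in controls and 16.8, 14.7 and 22.9 CPM after IAA. All depleted libraries lay above all controls, with depleted replicate 3 the highest. Its paired log2 fold change was 0.54 (95% interval 0.15 to 0.93, before adjustment over genes), and it was not called (edgeR adjusted p = 0.0689). Atf5 overlaps Nup62, a nuclear pore gene of much higher count, which went from 317 ± 58.6 to 407 ± 64.9 CPM (mean ± SD, n = 3) and rose in the paired fit (edgeR adjusted p = 0.00642). Without a statement of strand, reads of the overlapping genes cannot be told apart.

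Ddit3 (chromosome 10, 127290793 to 127296291), the second member whose groups did not overlap, was the least covered of the 10. It stood at 5.82, 5.75 and 8.67 CPM in controls, from 101 to 160 counts, and at 9.20, 8.81 and 10.3 CPM after IAA, from 152 to 206 counts. The ratios within pairs were 1.58, 1.53 and 1.19, and the paired log2 fold change of 0.51 was not called (SE 0.24, edgeR adjusted p = 0.187). Its interval overlaps Mars1, which fell in the paired fit (below), and Mbd6, which went from 48.5 ± 5.98 to 59.3 ± 8.09 CPM and was not called.

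Neither of the feedback genes of the response was called. Ppp1r15a (chromosome 7, 45522917 to 45526268, overlapped by Tulp2) stood at 39.7, 20.6 and 36.0 CPM in controls and 41.3, 27.1 and 48.1 CPM after IAA. It was 1.04, 1.32 and 1.34 times as high within the pairs, and was not called (log2 fold change 0.29 and SE 0.13 with pairs; edgeR, adjusted p = 0.178). Trib3 (chromosome 2, 152337425 to 152344060) stood at 33.9, 21.0 and 36.5 CPM in controls and 28.6, 23.3 and 49.7 CPM after IAA. Its pairs went in different directions, with ratios of 0.843, 1.11 and 1.36, and the paired log2 fold change of 0.11 had a 95% interval of -0.21 to 0.44.

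The 3 enzyme genes showed no common direction. Asns (chromosome 6, 7675165 to 7693209) stood at 189, 277 and 275 CPM in controls and 168, 308 and 246 CPM after IAA. It was the one member whose lowest library was not control replicate 2, and its ratio was above 1 in pair 2 alone. The paired log2 fold change was -0.056, with a 95% interval of -0.23 to 0.12.

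Psat1 (chromosome 19, 15905123 to 15925059) stood at 137, 136 and 181 CPM in controls and 139.5, 173 and 164 CPM after IAA, a paired log2 fold change of 0.078 (95% interval -0.13 to 0.28). Chac1 (chromosome 2, 119351242 to 119354326) varied most, at 15.0, 5.86 and 17.9 CPM in controls and 8.97, 10.3 and 17.9 CPM after IAA. It fell to 0.598 of its control in pair 1, stood at 1.75 times its control in pair 2 and was equal in pair 3. In the paired fit its 95% interval of -0.54 to 0.54 reached further below 0 than that of any other member. Without pairs its 95% interval was -1.04 to 0.90, so a change in either direction within these wider bounds was not resolved.

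**Figure D3:**
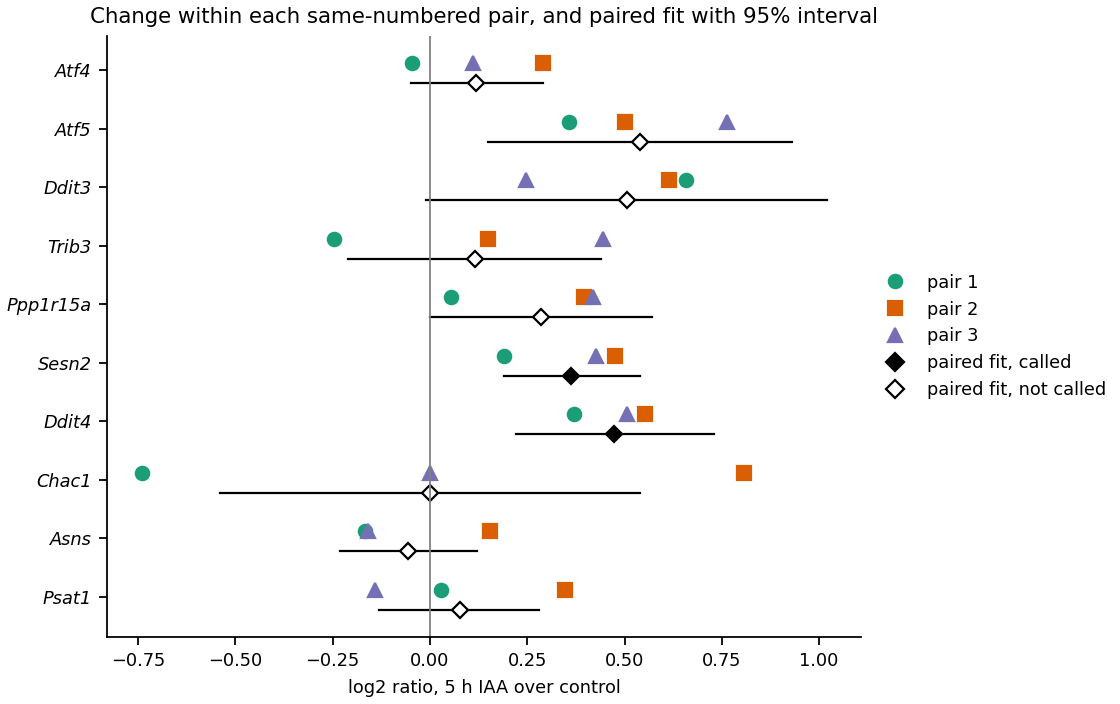
Log2 ratio of 5 h IAA over control (x axis) within each same-numbered pair (coloured points) and in the paired edgeR fit with its 95% interval (diamonds, filled where called) for the 10 genes. Sesn2 and Ddit4 are the filled diamonds, and the 3 pairs of Atf4, Trib3, Chac1, Asns and Psat1 lie on both sides of 0.

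The pairs themselves differed. The median log2 ratio over the 10 members was 0.04 in pair 1, 0.44 in pair 2 and 0.33 in pair 3, beside -0.01, 0.05 and -0.01 over all tested genes, and 6, 10 and 7 members were higher. Pair 1 thus lay close to the median of all genes, and pairs 2 and 3 lay above it. The unpaired median of 0.21 dropped to 0.04 when control replicate 2 was left out and to 0.06 without depleted replicate 3. It went up to 0.42 without depleted replicate 2, 0.32 without control replicate 1 and 0.33 without control replicate 3. Atf5, Ddit3, Ddit4, Sesn2 and Ppp1r15a stayed above 0 whichever library was left out, whereas Atf4, Trib3, Chac1 and Asns changed sign, and Psat1 came to -8e-05 without control replicate 2.

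**Figure D4:**
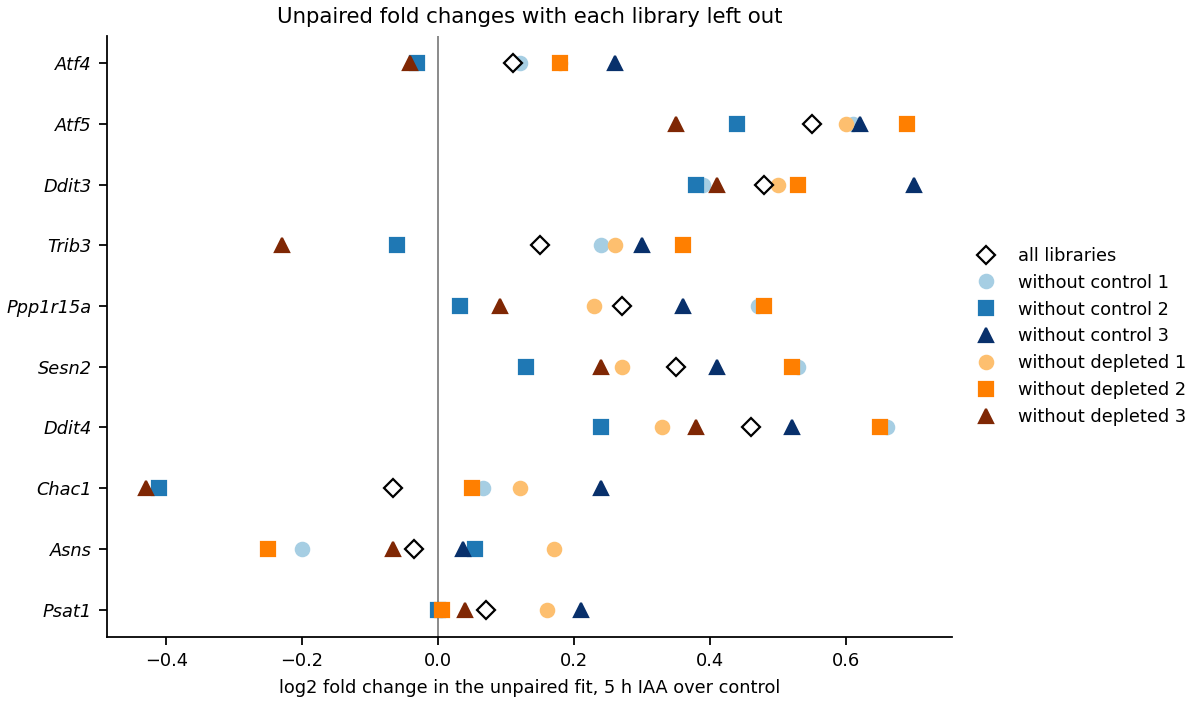
Log2 fold change in the unpaired fit (x axis) of each of the 10 genes with all 6 libraries (open diamonds) and with each library left out in turn (coloured points). Without control replicate 2 or depleted replicate 3 the values of 9 genes lie below those from all libraries; those of Asns lie on both sides of its own.

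Upstream of ATF4 stand the kinases and regulators of eIF2. In the paired fit 1 of the 18 listed genes rose and 3 fell, beside 4.96% and 7.9% of all tested genes, and the list's median log2 fold change was 0.03. Eif2ak2, which encodes the double-stranded RNA sensor PKR, went from 38.9 ± 7.07 to 25.3 ± 2.83 CPM (log2 fold change -0.61 and SE 0.13 with pairs; edgeR, adjusted p = 0.00941), a call lost without pair 3. Dele1, which relays mitochondrial stress to the eIF2 kinase HRI, went from 44.6 ± 8.12 to 25.9 ± 8.28 CPM (log2 fold change -0.81 and SE 0.15 with pairs; edgeR, adjusted p = 0.00335) and kept its call whichever pair was left out. Impact, an inhibitor of the amino acid sensor GCN2, fell 1.26-fold and Nck1, an adaptor that counters eIF2 phosphorylation, rose 1.37-fold, and the call of Impact was lost without pair 1 or pair 3 and that of Nck1 without pair 3. All depleted libraries lay above all controls for Nck1, beside 6.94% of all tested genes. They lay below all controls for Eif2ak2, Dele1 and Impact, and the share of all tested genes below all controls was not counted. These 4 genes were named because they were called, so the separation of their groups adds no support to the calls. None of the 4 genes was called in the unpaired fit. The genes of the other 3 kinases, named here after their values were seen, had paired log2 fold changes of 0.11 for Eif2ak1, 0.013 for Eif2ak3 and 0.002 for Eif2ak4, with no call.

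Beside ATF4, the 8 partner factors all had fold changes above 0, with a median of 0.35 in the paired fit, beside 0.018 over all tested genes. Of the 8, 1 was called higher, beside 4.96% of all tested genes. That was Nfe2l1, a factor of the proteasome and oxidant responses, which rose from 273 ± 31.4 to 342 ± 34.0 CPM (log2 fold change 0.33 and SE 0.07 with pairs; edgeR, adjusted p = 0.00865) and was not called without pair 3. The C/EBP factor gene Cebpb, named here after its values were seen, had the highest value of the list, 2.87, with an SE of 1.09 and no call. Atf3 (0.70, SE 1.28), Jdp2 (0.36, SE 0.65), Cebpd (0.58, SE 0.45) and Nupr1 (0.28, SE 0.43), also named after their values, were not called. With errors of this size the direction of Atf3, Jdp2, Cebpd and Nupr1 was not resolved. Cebpg (0.259, SE 0.095, edgeR adjusted p = 0.0932) and Nfe2l2 (0.014, SE 0.096), likewise named after their values, were not called.

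The amino acid genes of the ATF4 programme beyond Asns and Psat1 were listed separately. Of 34 tested genes for amino acid synthesis, amino acid transport and tRNA charging, 0 rose and 6 fell in the paired fit, beside 4.96% and 7.9% of all tested genes, and the median log2 fold change was -0.07. Slc1a4, a transporter of alanine, serine and cysteine, stood at 41.9, 26.9 and 34.3 CPM in controls and 13.3, 7.57 and 6.50 CPM after IAA. It fell 3.76-fold with no overlap between groups and was the one gene of all these lists that the unpaired fit called (log2 fold change -1.91 and SE 0.31; edgeR, adjusted p = 0.0379). The paired fit called it as well (edgeR adjusted p = 5.53e-05), and kept the call whichever pair was left out, while the unpaired call was lost when any library was left out, with log2 fold changes of -2.28 to -1.72 over all these omissions. DESeq2 without pairs called 3 genes of the 8 other lists. These were Slc1a4 (DESeq2 adjusted p = 1.35e-06), Lars (0.0405) and Atf6 (0.0313), the last 2 described below.

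Both enzymes of the route from homocysteine to cysteine fell in the paired fit. Cbs went from 14.8 ± 3.47 to 7.95 ± 0.643 CPM (adjusted p = 0.0194 in edgeR), and Cth went from 53.1 ± 16.0 to 34.4 ± 5.32 CPM (edgeR adjusted p = 0.00734). Among tRNA charging genes, the leucyl synthetase gene Lars fell 1.41-fold, the methionyl synthetase gene Mars1 1.25-fold and the isoleucyl synthetase gene Iars 1.21-fold, while 0 of 13 rose. The call of Cbs was lost without pair 1 or pair 2, that of Cth without pair 3, and those of Mars1 and Iars without pair 1 or pair 3. These 6 genes, Slc1a4 included, span 15.6 to 59.9 kb of genome.

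Of 10 further ATF4 targets tested, 1 rose and 0 fell in the paired fit, beside 4.96% and 7.9% of all tested genes. The 1 that rose, the autophagy gene Map1lc3b, went from 102 ± 15.9 to 132 ± 23.0 CPM (edgeR adjusted p = 0.0153 in the paired fit), a call lost without pair 2 or pair 3. The hormone gene Fgf21 had 0 counts in every library. Of 6 paralogs of the members 2 fell and 0 rose in the paired fit, beside 7.9% and 4.96% of all tested genes. Sesn3, a paralog of Sesn2, fell 1.91-fold in the paired fit, from 33.7 ± 13.0 to 18.1 ± 9.16 CPM (edgeR adjusted p = 0.00153, kept whichever pair was left out). Chac2, the constitutive relative of Chac1, went from 6.58 ± 1.31 to 2.11 ± 1.44 CPM (edgeR adjusted p = 0.00785; lost without pair 3, overlapped by Asb3). Sesn1, Trib1, Trib2 and Ddit4l were not called.

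In the other branches of the unfolded protein response, run by ATF6 and IRE1, the paired fit called 7 of 18 genes higher and 1 lower, beside 4.96% and 7.9% of all tested genes, with a median log2 fold change of 0.26. Atf6 itself went from 92.8 ± 5.84 to 126 ± 2.26 CPM without overlap between groups (edgeR adjusted p = 0.00444, kept whichever pair was left out). Among the ER chaperone genes Pdia4 and Dnajb9 each rose 1.39-fold and Hyou1 1.35-fold in the paired fit, and Sel1l, of the ER degradation machinery, fell 1.34-fold. Pdia4 kept its call whichever pair was left out, Dnajb9 lost it without pair 1 or pair 2, Hyou1 without pair 2, and Sel1l without pair 2 or pair 3. None of the 18 was called in the unpaired edgeR fit. In that fit 5 had an unadjusted p under 0.05, beside 1914 of the 17573 tested genes. DESeq2 without pairs called Atf6 (adjusted p = 0.0313). A difference between these lists and the 10 members was not tested.

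**Figure D5:**
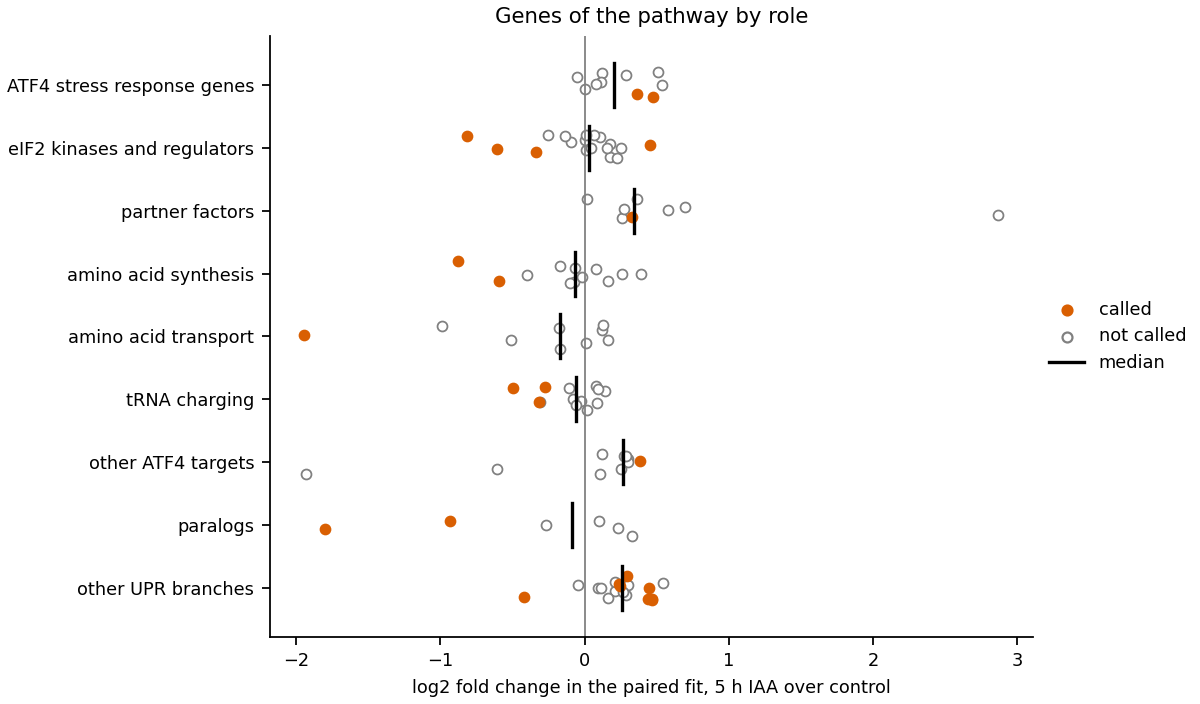
Log2 fold change in the paired edgeR fit (x axis) of each tested gene, by role in the pathway, with genes called at an adjusted p under 0.05 filled and the median of each group as a black line. Filled points lie below 0 alone in amino acid synthesis, amino acid transport, tRNA charging and the paralogs, and above 0 with 1 exception in the other branches of the unfolded protein response.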

How the data were processed

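The deposited table holds estimated counts per gene as whole numbers for 6 libraries, 1 column each, matched to samples by name. The submitters' processing notes name StringTie 2.2.1, HISAT2 2.2.1, DESeq2 1.42.0 and mm10 without saying what each was used for. Neither annotation nor strand setting is given in the sources used here. Such estimated counts can divide reads between overlapping genes.

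The main analysis was run with edgeR 4.0.16 under R 4.3.3 (filterByExpr, TMM scaling, robust quasi-likelihood test, Benjamini-Hochberg over 17573 genes, called under 0.05). Levels are TMM-normalised CPM. Intervals and SE follow from the fold change and its F statistic. Transcript lengths are not in the tables used here, so levels were not compared between genes. Deviations from the group mean correlated at 0.211, 0.319 and 0.278 for libraries of the same replicate number and at -0.231 to -0.025 otherwise. Deviations within a group sum to 0, so values above 0 for like numbers bring values below 0 for the others. The labels do not say that the numbers pair the libraries, which were treated as pairs in the blocked edgeR fit. Intervals of single members come from that fit unless stated. Without pairs they were wider, with -0.32 to 0.54 for Atf4, -0.57 to 0.87 for Trib3 and -0.57 to 0.50 for Asns. Overlap of groups and order within pairs were read on log2 CPM with 0.5 counts added. The 10 members and the 8 other pathway lists and the 5 marker lists were chosen with earlier results of these data known; all members are named, and from the other lists up to 4 called genes per direction. The tests were tested on simulated data. Those data had an assumed spread and a built-in replicate effect, so they do not check the pairing of the real libraries. Alternatives were DESeq2 1.42.0, other scalings, no filter, and omission of libraries or pairs.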

Additional observations from a re-analysis of the deposited data

How the results depend on the processing

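The replicate block moved the counts most. With the replicate block, 871 genes were higher and 1388 lower, against 2 and 137 without it, with 2 members and 22 genes of the other lists called, against 0 and 1. Without pair 1, 2 or 3 the blocked fit called 491, 412 and 250 genes higher and 927, 1016 and 699 lower, 1, 0 and 0 members, and 17, 15 and 9 genes of the other lists. DESeq2 gave 62 higher, 579 lower and 3 of the other lists without the block, and 1137, 1401, 25 and 2 members with it. RLE scaling, upper quartile scaling and the omission of the filter kept each of these counts within 1.5 times and the members' median log2 fold change between 0.20 and 0.23. Leaving out single libraries from the unpaired fit gave 0 to 1 genes higher, 0 to 1 lower, 0 of the other lists and a members' median of 0.04 to 0.42.

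Of 150 values of single members under the alternatives, 17 changed sign and 5 became called, all 5 for Sesn2 or Ddit4 with the block. Chac1 was 0.0014 in the blocked edgeR fit, 0.026 in the blocked DESeq2 fit and 0.38 in the blocked fit without pair 1. Psat1 was -0.057 in the blocked fit without pair 2 and Trib3 -0.067 without pair 3. With single libraries left out, log2 fold changes ran from -0.43 to 0.24 for Chac1, -0.042 to 0.26 for Atf4, -0.23 to 0.36 for Trib3, -0.25 to 0.17 for Asns and -8e-05 to 0.21 for Psat1. The cause of these changes was not tested. Depth limits Ddit3 most, with 101 to 206 counts per library, and at this spread a fold change of the size of Atf5 (1.47-fold) was not called without pairs.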

Other observations

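The 5 genes outside the list whose levels over the 6 libraries most resembled the mean of the 10 members (Pearson correlation of standardised log2 CPM, among 9537 genes with a mean of at least 10 CPM) were Anks1 (0.998), Dlg5 (0.993), Acads (0.988), Rab11fip4 (0.984) and Map2k2 (0.984). Anks1 and Dlg5 encode scaffold proteins, Acads a mitochondrial acyl-CoA dehydrogenase, Rab11fip4 a RAB11 effector and Map2k2 the kinase MEK2. Each of the 5 was lowest in control replicate 2 and highest in depleted replicate 3, and none was called in the paired edgeR fit (adjusted p of 0.109 to 0.454). In all, 94 of the 9537 genes correlated above 0.95 over the same 6 libraries, so the likeness describes an order of libraries. Its cause was not tested. Among the members, the correlation of each with the mean of the others was 0.96 for Atf4, 0.85 for Trib3 and 0.84 for Atf5, and lowest for Psat1 (0.52) and Asns (-0.22).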
